A study of Rhinolophus ferrumequinum with 8 samples.

Results

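The genes described here serve antigen presentation by MHC class I and the immunoproteasome. They are B2M, TAP1, TAP2, TAPBP, NLRC5, PSMB8, PSMB9, PSMB10, PSME1 and PSME2, taken by name from a deposited gene table. All 10 were among its 19652 genes, and all 10 reached the mean of at least 1 that defined the 13542 genes tested. The animals were greater horseshoe bats (Rhinolophus ferrumequinum), all wild and female, and the RNA of the whole spleen was sequenced in 4 states with 2 biological replicates each. Summer active bats were sampled in July. Torpor bats, which were in the cold, low-metabolism phase of hibernation, were sampled in November. Arousal and winter active bats were also November animals, captured for 2 h and 26 h. The labels give no age and name no drug or genetic change for any group. A library is called by its state and its replicate number (torpor 1).

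MHC class I molecules show peptides from inside a cell to cytotoxic T cells. The proteasome cuts proteins into peptides, the TAP transporter carries them into the endoplasmic reticulum, and tapasin helps load them onto a class I heavy chain that is held by beta-2-microglobulin. In many immune cells, and in other cells under interferon gamma, 3 induced catalytic subunits replace their constitutive counterparts in the proteasome core and form the immunoproteasome. The spleen, rich in lymphocytes and macrophages, is a tissue in which this form is abundant in mammals studied for it.

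Levels are rescaled TPM, a value per transcript length that allows genes to be set beside each other, and means are given ± SD (n = 2 libraries). Depth behind each value is unknown, since no counts were used. Differences are on the log2(level + 1) scale with their standard error (SE) and limma's adjusted p over all tested genes, and 0.05 was the threshold. The scaling between libraries bears on every direction below. Column totals ran from 745098 to 1331820, and the 10 genes with the highest means took 35.7% to 35.8% of the total in summer active libraries, against 7.22% to 19.5% in the others. Rescaling the columns to equal totals moved the median difference of all genes from -0.055 to 0.29 in torpor against summer active, from 0.11 to 0.45 in arousal against torpor, and from 0.083 to 0.76 in arousal against summer active. Differences are therefore also given relative to the median of all tested genes.

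Libraries also differed in cell markers. The spleen transcription factor genes TLX1 and NKX2-5 summed to 32.4 in summer active 2 and 84.3 in summer active 1, against 49.8 to 85.5 elsewhere. Hepatocyte markers (4 of 4 genes in the table) summed to 14419 in arousal 2, against 37.1 to 1517 elsewhere, and 1 of the 4 was at 0 in summer active 2. Pancreatic markers (3 of 3) summed to 1160 in torpor 1 and 537 in arousal 2, against at most 271 elsewhere. Erythroid markers (5 of 5) summed to 3953 and 5459 in summer active libraries, against 1.73 to 102 elsewhere. Adipocyte markers (3 of 3) summed to 189.6 in arousal 2 and 199 in winter active 2, against 32.5 in arousal 1, 36.8 in winter active 1, 53.1 to 63.5 in torpor and 4.73 to 5.05 in summer active. Neutrophil markers (5 of 5) summed to 12185 in torpor 1, against 982 to 3553 elsewhere. KRT4, of squamous epithelium, stood at 1617 in summer active 2 and at most 1.21 elsewhere. The stomach markers GKN1 and GKN2 summed to 1261 in winter active 2, and were both at 0 in 4 libraries.

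Under the deposited scaling, arousal held the low point of most of the genes. The mean was lowest in arousal for 9 of 10, the exception being TAP2, whose mean was lowest in summer active. It was highest in summer active for 5, in torpor for 4 and in winter active for 1. This order depended on the scaling: with columns rescaled to equal totals, the mean was lowest in arousal for 3 (B2M, PSMB8 and PSMB9), in summer active for 6 and in torpor for 1. Among single libraries as deposited, arousal 2 held the lowest value of 9 genes and arousal 1 that of PSMB10. The shares of all tested genes with such extremes were not counted, so these counts are not read as particular to the 10. These are levels in whole tissue, so fewer cells of a type and less RNA per cell cannot be told apart.

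**Figure D1:**
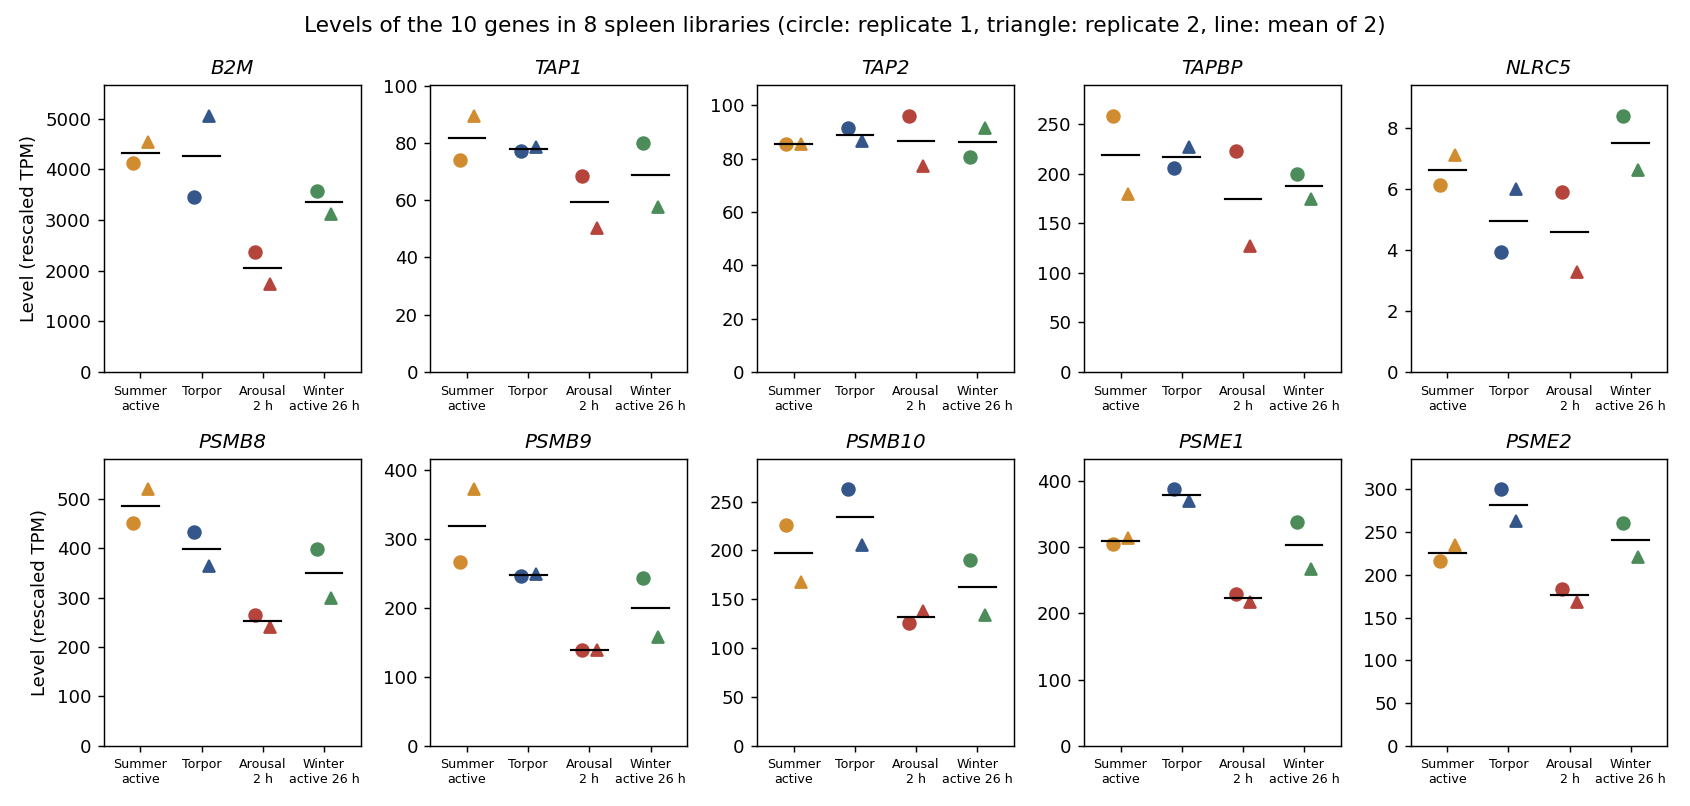
Level (rescaled TPM, linear axes from 0) of each gene in the 8 libraries, by state in order of sampling; circles are replicate 1, triangles replicate 2 and lines the mean of 2. Both arousal libraries lie below every other library for B2M, PSMB8, PSMB9, PSME1 and PSME2, while TAP2 stays between 77.4 and 96.0 throughout.

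Among the presenting molecules, B2M (NCBI gene 117023740), the light chain shared by class I molecules, had by far the highest level of the 10. It stood at 4119 and 4540 in summer active, 3462 and 5062 in torpor, 2372 and 1732 in arousal, and 3585 and 3115 in winter active. Both arousal libraries lay below all 6 others, and the torpor pair spanned the widest range of any state. B2M ranked between 15th and 55th of all genes in a library. The heavy chains that pair with it are not analysed here, since no gene of the table could be assigned to them by name.

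The peptide transporter is built from TAP1 and TAP2. TAP1 (117020460) stood at 73.9 and 89.5 in summer active, 77.2 and 78.5 in torpor, 68.6 and 50.3 in arousal, and 79.8 and 57.6 in winter active. Both arousal libraries lay below both torpor and both summer active libraries, while winter active 2 lay between the arousal pair. TAP2 (117020489) stood at 85.5 and 85.3 in summer active, 91.4 and 86.4 in torpor, 96.0 and 77.4 in arousal, and 80.7 and 91.6 in winter active. The 2 arousal libraries held both its highest and its lowest value, and no state mean differed from its neighbour in order of level beyond their spread. Its full range over 8 libraries was 0.31 on the log2 scale, smaller than in all but 0.495% of tested genes, whose median range was 1.11.

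Tapasin, encoded by TAPBP (117017304), bridges the transporter and the class I molecule. It stood at 259 and 180 in summer active, 206 and 227 in torpor, 223 and 127 in arousal, and 199 and 175 in winter active. Arousal 1 lay within the torpor range and arousal 2 below all other libraries. NLRC5 (117035562), a transcriptional coactivator of class I genes, was the least abundant of the 10. It stood at 6.13 and 7.11 in summer active, 3.92 and 6.00 in torpor, 5.89 and 3.29 in arousal, and 8.40 and 6.61 in winter active. The torpor and arousal pairs overlapped, and both torpor libraries lay below both summer active and both winter active libraries.

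The induced catalytic subunits of the proteasome core shared the low arousal values. PSMB8 (117015676), the induced counterpart of PSMB5, stood at 452 and 519 in summer active, 432 and 364 in torpor, 266 and 241 in arousal, and 399 and 300.3 in winter active. PSMB9 (117020462), the counterpart of PSMB6, stood at 266 and 371 in summer active, 246 and 249 in torpor, 138 and 138 in arousal, and 242 and 157 in winter active. For PSMB9 the 4 states were ordered summer active, torpor, winter active and arousal with no overlap between any neighbours. PSMB10 (117034797), the counterpart of PSMB7, stood at 226 and 168 in summer active, 262 and 206 in torpor, 126 and 138 in arousal, and 191 and 134 in winter active. Its winter active pair overlapped the arousal pair and the summer active pair.

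PSME1 (117022772) and PSME2 (117022773) encode the alpha and beta chains of PA28, a cap that opens the core and is induced by interferon gamma. PSME1 stood at 305 and 314 in summer active, 387 and 369 in torpor, 230 and 218 in arousal, and 338 and 267 in winter active. PSME2 stood at 216 and 235 in summer active, 300.1 and 263 in torpor, 183 and 169 in arousal, and 261 and 221 in winter active. Both torpor libraries lay above all 6 others for each gene, and both arousal libraries below all 6 others.

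Arousal against summer active asks how the spleen 2 h after capture differed from that of summer bats. These states were sampled in different months, so state, capture and month cannot be told apart in it. PSMB9 was the single gene of the 10 that passed the test, and it did so in this comparison alone. It averaged 138 ± 0.147 in arousal, against 319 ± 74.3 in summer active, with a log2 difference of -1.18 (SE 0.26, adjusted p = 0.0474). Its highest level, 371, was in summer active 2, the library with the high KRT4 level, and the part of this was not tested. Relative to the median of all genes the difference was -1.26, and it was -1.17 relative to that median after rescaling. The call was near the threshold and was lost under 12 of 14 alternatives, with adjusted p between 0.0547 and 0.168 there. It was kept with a pseudocount of 0.1 and without summer active 1 (adjusted p = 0.0459 and 0.0482). With the replicate number as a block the adjusted p was 0.0547. It was 0.163 without summer active 2, 0.162 without arousal 1, 0.116 without arousal 2, 0.0779 without torpor 1, 0.0785 without torpor 2, 0.0616 without winter active 1 and 0.0616 without winter active 2. After rescaling the difference itself was -0.41 (adjusted p = 0.168).

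Over all tested genes, 5.52% were called in arousal against summer active and 3.14% were called lower, so 1 of 10 stands beside a background of 3.14%. PSMB8 averaged 253 ± 17.4 in arousal and 486 ± 47.7 in summer active (difference -0.93, SE 0.21, adjusted p = 0.0514). B2M averaged 2052 ± 453 in arousal and 4330 ± 297 in summer active (difference -1.09, SE 0.29, adjusted p = 0.0678). These 2 differences did not pass. An unadjusted p under 0.05 was reached by 4 of the 10, beside 28.9% of tested genes. Of the 10 genes, 9 had a negative difference, against 45.1% of tested genes, and 8 had both arousal libraries below both summer active libraries, against 25.3% of all tested genes. The median difference was -0.48, beside 0.083 for all genes. All 10 lay below the all-gene median, between -1.26 and -0.07, and after rescaling 9 did, TAP2 standing at 0.015. After rescaling the raw differences of 7 genes were positive, beside a median difference of 0.76 for all genes. TAP2 alone was called then, as higher (difference 0.78, adjusted p = 0.0236 by limma), beside 43.1% of all genes called higher. Without arousal 1 the median difference of the 10 was -0.72. Without arousal 2, the library with the high hepatocyte sum, it was -0.36.

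Arousal against torpor compares bats captured for 2 h with torpor bats, all from November. The labels give capture hours for arousal and winter active bats alone, so state and capture cannot be told apart in it. None of the 10 genes passed, and neither did any other gene by limma (0% called, with 19.7% at an unadjusted p under 0.05). The members with the smallest p were PSME1, PSME2 and B2M. PSME1 averaged 224 ± 8.5 in arousal and 378 ± 12.7 in torpor (difference -0.76, SE 0.18, adjusted p = 0.148). PSME2 averaged 176 ± 10.2 in arousal and 281 ± 26.4 in torpor (difference -0.67, SE 0.18, adjusted p = 0.169). B2M averaged 2052 ± 453 in arousal and 4262 ± 1132 in torpor (difference -1.05, SE 0.29, adjusted p = 0.172).

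All 10 differences between arousal and torpor were negative, against 41.9% of tested genes, and ran from -1.05 for B2M to -0.043 for TAP2, with a median of -0.66 beside 0.11 for all genes. In 7 of the 10, both arousal libraries lay below both torpor libraries, against 22.2% of tested genes. TAP2, TAPBP and NLRC5 overlapped. An unadjusted p under 0.05 was reached by 6 of the 10, all lower, against 6.88% of tested genes on the lower side. Relative to the all-gene median, the 3 catalytic subunits PSMB8, PSMB9 and PSMB10 stood at -0.76, -0.95 and -0.92, the PA28 genes PSME1 and PSME2 at -0.86 and -0.78, and B2M at -1.16. The transporter and regulator genes stood closer, with TAP1 at -0.51, TAPBP at -0.47, NLRC5 at -0.22 and TAP2 at -0.15. After rescaling, all 10 still lay below the all-gene median, while the raw differences of TAP2, TAPBP and NLRC5 turned positive (0.33, 0.02 and 0.21). Under quantile normalization, B2M stood at -0.27 and TAP2 at 0.10 relative to that median, and 9 of 10 lay below it. Without arousal 2, the library with the high hepatocyte sum, the median difference of the 10 was -0.60, and it was -0.74 without arousal 1. The differences of TAP2, TAPBP and NLRC5 were positive without arousal 2.

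**Figure D2:**
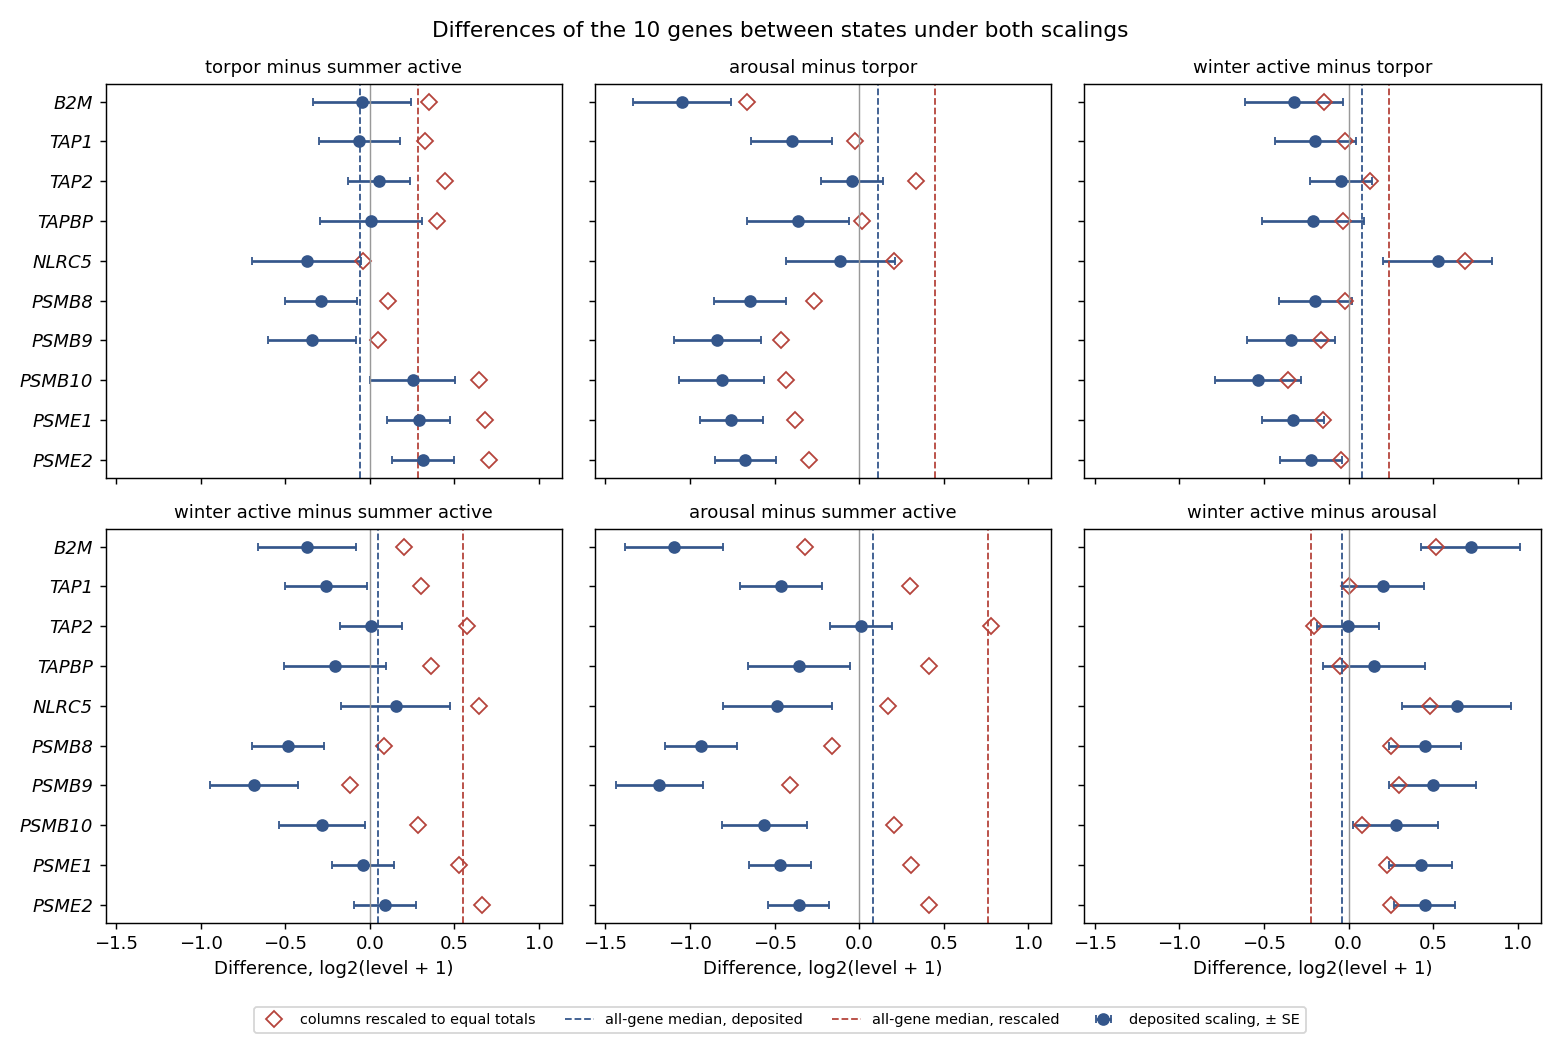
Difference between states on the log2(level + 1) scale for each gene, one panel per comparison; filled circles with bars are the deposited scaling ± SE, open diamonds the columns rescaled to equal totals, and dashed lines the median of all tested genes under each scaling. In arousal minus torpor all 10 filled circles lie below 0 and all 10 diamonds below their own dashed line, and in winter active minus arousal all 10 lie above their dashed lines.

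Winter active against arousal compares bats captured for 26 h and for 2 h, so state and time of capture cannot be told apart in it. None of the 10 genes passed, and 0% of all genes were called by limma, with 5.45% at an unadjusted p under 0.05 (2 of the 10). The genes with the smallest p were B2M, PSME2 and PSME1. B2M averaged 3350 ± 332 in winter active and 2052 ± 453 in arousal (difference 0.72, SE 0.29, adjusted p = 0.825). PSME2 averaged 241 ± 28.3 in winter active and 176 ± 10.2 in arousal (difference 0.45, SE 0.18, adjusted p = 0.825). PSME1 averaged 303 ± 50.2 in winter active and 224 ± 8.5 in arousal (difference 0.43, SE 0.18, adjusted p = 0.825). In B2M, NLRC5, PSMB8, PSMB9, PSME1 and PSME2, which are 6 of the 10, both winter active libraries lay above both arousal libraries, against 18.1% of tested genes. Of the 10 differences 9 were positive, against 45.6% of tested genes. The median difference was 0.44, beside -0.037 for all genes, and all 10 lay above the all-gene median under the deposited scaling, after rescaling and under quantile normalization. This comparison and arousal against torpor share the arousal libraries. The 2 winter active libraries differed from each other: 9 of the 10 genes, all but TAP2, were higher in winter active 1 than in winter active 2, against 47.6% of tested genes. Likewise 9 of the 10, all but PSMB10, were higher in arousal 1 than in arousal 2, against 50.6% of tested genes. Without winter active 1 the median difference was 0.22, and without winter active 2 it was 0.58.

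Winter active against torpor compares the longer captured bats with hibernating ones, and state and capture cannot be told apart in it either. None of the 10 genes passed, and 0% of all genes were called by limma, with 13.2% at an unadjusted p under 0.05 (0 of the 10). PSMB10 averaged 162 ± 39.8 in winter active and 234 ± 40.2 in torpor (difference -0.54, SE 0.25, adjusted p = 0.405). PSME1 averaged 303 ± 50.2 in winter active and 378 ± 12.7 in torpor (difference -0.33, SE 0.18, adjusted p = 0.463). NLRC5 averaged 7.51 ± 1.26 in winter active and 4.96 ± 1.47 in torpor (difference 0.53, SE 0.32, adjusted p = 0.495). NLRC5 was thus the gene on the higher side, with both winter active libraries above both torpor libraries, against 29.6% of tested genes on that side. The other 9 differences were negative, against 43.2% of tested genes, and the median of the 10 was -0.22 beside 0.079 for all genes. TAPBP, PSMB9, PSMB10, PSME1 and PSME2 had both winter active libraries below both torpor libraries, against 21.3% of tested genes on that side. Without winter active 1 the median was -0.41, and without winter active 2 it was -0.11.

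Winter active against summer active compares 2 states sampled in different months, so state, capture and month cannot be told apart in it. None of the 10 genes passed by limma, beside 1.03% of all genes, and 1 of the 10 had an unadjusted p under 0.05, beside 14.8% of all genes. PSMB9 averaged 200 ± 60.2 in winter active and 319 ± 74.3 in summer active (difference -0.68, SE 0.26, adjusted p = 0.295). PSMB8 averaged 350 ± 69.7 in winter active and 486 ± 47.7 in summer active (difference -0.48, SE 0.21, adjusted p = 0.351). B2M averaged 3350 ± 332 in winter active and 4330 ± 297 in summer active (difference -0.37, SE 0.29, adjusted p = 0.56). In these 3 genes both winter active libraries lay below both summer active libraries, against 21.9% of tested genes. After rescaling, the differences of PSMB8 and B2M were 0.09 and 0.20, and 9 of the 10 were positive. Under the deposited scaling 7 of the 10 had been negative, against 46% of tested genes. Rescaling moved the median difference of all genes from 0.046 to 0.55, and the share of all genes positive after it was not counted. Relative to the all-gene median, PSMB9, PSMB8 and B2M stood at -0.73, -0.53 and -0.42, and at -0.67, -0.47 and -0.35 after rescaling. The median of the 10 was -0.23, and -0.067 without summer active 1, -0.39 without winter active 1 and -0.057 without winter active 2.

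Torpor against summer active asks how hibernating bats differed from summer bats, again with the month confounded. None of the 10 genes passed by limma, beside 0.561% of all genes, and 0 of the 10 had an unadjusted p under 0.05, beside 16% of all genes. PSME2 averaged 281 ± 26.4 in torpor and 226 ± 13.2 in summer active (difference 0.31, SE 0.18, adjusted p = 0.441). PSME1 averaged 378 ± 12.7 in torpor and 309 ± 6.53 in summer active (difference 0.29, SE 0.18, adjusted p = 0.487). PSMB8 averaged 398 ± 48.3 in torpor and 486 ± 47.7 in summer active (difference -0.29, SE 0.21, adjusted p = 0.548), and its difference was 0.10 after rescaling. The 10 genes split evenly in sign, 5 positive and 5 negative (54.9% of tested genes were negative). After rescaling 9 were positive and 1, NLRC5, negative, beside a median of 0.29 for all genes. Under the deposited scaling the median of the 10 was -0.021, beside -0.055 for all genes. TAP2, PSME1 and PSME2 had both torpor libraries above both summer active libraries, against 20.4% of tested genes. NLRC5, PSMB8 and PSMB9 had both torpor libraries below both summer active libraries, against 26% of tested genes. PSMB10 stood at 0.25 and PSMB9 at -0.34, neither past the threshold, and at 0.64 and 0.050 after rescaling.

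Ratios within a library do not depend on the scaling between libraries, so each induced subunit was set against the constitutive subunit it replaces. PSMB8 exceeded PSMB5 in all 8 libraries. The ratio PSMB8/PSMB5 was 4.49 and 4.39 in summer active, 3.34 and 2.45 in torpor, 3.00 and 1.84 in arousal, and 3.99 and 2.40 in winter active. Both summer active libraries lay above the 6 November libraries. The ratio PSMB9/PSMB6 was 1.31 and 1.90 in summer active, 1.33 and 1.57 in torpor, 1.25 and 0.978 in arousal, and 1.44 and 1.06 in winter active. PSMB10/PSMB7 ranged from 0.871 in arousal 2 to 1.77 in summer active 1, and states overlapped. Summed over the 3 pairs, the induced subunits made up 68.6% and 68.9% of the catalytic subunit level in summer active, 65.5% and 64.6% in torpor, 64.9% and 54.5% in arousal, and 66.9% and 59.99% in winter active. The constitutive partners themselves averaged 110 ± 12.5 (PSMB5), 199 ± 5.58 (PSMB6) and 146 ± 26.1 (PSMB7) in summer active. In arousal they averaged 110 ± 30.2, 126 ± 21.4 and 123 ± 50.2.

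The ratios of partners within a complex were also set side by side. PSME1/PSME2 ranged from 1.21 to 1.41 over the 8 libraries, so PSME1 was the higher in every one. TAP1/TAP2 was 0.864 and 1.05 in summer active, 0.845 and 0.908 in torpor, 0.714 and 0.650 in arousal, and 0.989 and 0.629 in winter active. No ratio passed the threshold for a difference between the 4 states by an exact permutation test of the F statistic. The adjusted p over the 5 ratios was 0.536 for PSMB8/PSMB5, PSMB9/PSMB6, PSME1/PSME2 and TAP1/TAP2 and 0.752 for PSMB10/PSMB7, and the smallest unadjusted p that 8 libraries in 4 pairs allow is 0.0095. A lone ratio could pass after adjustment only at that smallest p, so the test cannot show that the ratios were equal between states. The unadjusted p was 0.305, 0.381, 0.752, 0.276 and 0.429 for PSMB8/PSMB5, PSMB9/PSMB6, PSMB10/PSMB7, PSME1/PSME2 and TAP1/TAP2.

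**Figure D3:**
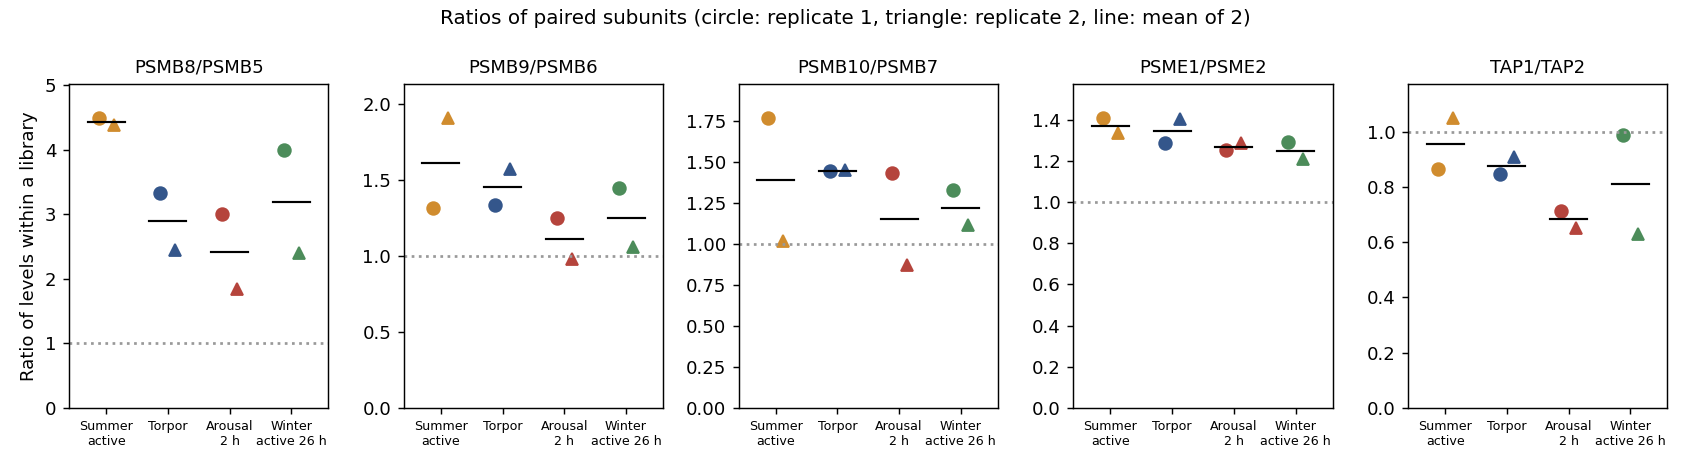
Ratio of the levels of paired subunits within each library (linear axes from 0, dotted line at 1), by state; circles are replicate 1, triangles replicate 2 and lines the mean of 2. PSMB8/PSMB5 is above 4 in both summer active libraries and between 1.84 and 3.99 in the 6 November libraries, and PSME1/PSME2 stays between 1.21 and 1.41.

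The 10 genes did not share a single profile to the same degree. Likeness between 2 genes was measured as the root mean square distance of their centred log2 profiles over the 8 libraries. Over the 45 pairs the median distance was 0.29. PSME1 and PSME2 were the closest pair (0.071), followed by PSMB8 and PSMB9 (0.15), and NLRC5 and PSMB10 were the farthest apart (0.51). The order of genes along assembly mRhiFer1_v1.p was read among its annotated protein-coding genes alone. TAP2, PSMB8, TAP1 and PSMB9 lay next to each other in this order, as in the MHC of other mammals. PSME1 and PSME2 had EMC9 alone between them. Adjacent genes were not uniformly alike: PSMB8 lay at 0.20 from TAP1 and 0.38 from TAP2, and TAP1 lay at 0.29 from PSMB9. TAP2 and PSMB9, at the ends of this run of genes, were the second farthest of all pairs, at 0.50.

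Of 9585 other named genes with a mean of at least 5, those whose profile lay nearest to the mean profile of the 10 were SMIM29, TMEM258, NPRL2, RING1, NEDD8, NOP10, NMRAL1, GMPPA, USF2 and TMUB1, at distances of 0.074 to 0.093. They are named for likeness in level across libraries alone. NEDD8, a ubiquitin-like modifier, averaged 294 in summer active, 274 in torpor, 182 in arousal and 240.0 in winter active. TMEM258, a subunit of the oligosaccharyltransferase, averaged 219 in summer active, 213 in torpor, 139 in arousal and 182 in winter active. The members themselves lay at 0.11 (TAP1) to 0.30 (NLRC5) from their mean profile.

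The wider pathway was read from lists of related genes. Of the 14 subunits of the constitutive proteasome core, none passed in any of the 6 comparisons by limma under the deposited scaling. All 14 had a negative difference in arousal against torpor, against 41.9% of tested genes. Their median was -0.45, beside -0.66 for the 10 genes and 0.11 for all genes. In that comparison 5 of the 14 had an unadjusted p under 0.05, beside 19.7% of tested genes. Relative to all genes the median of the core was -0.55, and -0.51 after rescaling, where 9 of the 14 differences were negative. PSMB6 differed by -0.45, PSMB7 by -0.44 and PSMB5 by -0.36 under the deposited scaling. In arousal against summer active 13 of 14 were negative, against 45.1% of tested genes. The median of the core there was -0.23, beside -0.48 for the 10 genes. After rescaling that median was 0.54, beside 0.76 for all genes, and all 14 were positive. Of the 8 cap and assembly genes, none passed under the deposited scaling. In arousal against torpor 2 of the 8 had an unadjusted p under 0.05, beside 19.7% of tested genes. The difference there was negative in 6, against 41.9% of tested genes (median -0.27, and 0.11 after rescaling, beside 0.45 for all genes).

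Of the 8 peptide loading and trimming genes, LNPEP, an endosomal aminopeptidase that trims peptides in cross-presentation, was the single call under the deposited scaling. It was called higher in arousal against summer active, where 2.39% of all genes were called higher, with state, capture and month again confounded. It averaged 13.2 ± 1.99 in arousal and 3.33 ± 0.921 in summer active (difference 1.72, SE 0.28, adjusted p = 0.0265). It stood at 14.6 and 11.8 in arousal and 8.96 and 11.9 in winter active. In torpor it stood at 2.95 and 4.09, and in summer active at 2.68 and 3.98. The call was lost with no filter (adjusted p = 0.0551), with these 2 states alone (0.111), and without any 1 of the summer active, arousal or winter active libraries (0.0535 to 0.127). The list's median difference was 0.39 in arousal against summer active, beside 0.083 for all genes. Of its 8 differences 2 were negative, against 45.1% of tested genes. In arousal against torpor the median was 0.30, beside 0.11, and 3 of 8 differences were negative, against 41.9% of tested genes. TAPBPL, a tapasin-related protein that edits class I peptides, was among the negative ones in both. It stood at 43.4 and 48.4 in arousal, against 81.5 and 73.1 in torpor and 67.3 and 71.8 in summer active, and its arousal libraries were the lowest of the 8. Its differences did not pass (arousal against torpor -0.74, SE 0.22, adjusted p = 0.174, and arousal against summer active -0.59, SE 0.22, adjusted p = 0.137). Of CD1D and FCGRT, class I-like partners of B2M, neither passed in any comparison under the deposited scaling. FCGRT, the neonatal Fc receptor, averaged 337 ± 27 in arousal, against 429 ± 5.79 in torpor and 355 ± 94.1 in summer active.

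Of 12 class II genes in the table, none passed in any comparison by limma under the deposited scaling. In arousal against torpor 4 of the 12 had an unadjusted p under 0.05, beside 19.7% of tested genes. In that comparison 5 of the 12 differences were negative, against 41.9% of tested genes, with a median of 0.11 beside 0.11 for all genes. In arousal against summer active 7 of the 12 were negative, against 45.1%, and the median was -0.22, beside 0.083. CD74, the invariant chain, stood at 8488 and 9607 in summer active, 7106 and 6400.2 in torpor, 5168 and 3700.3 in arousal, and 7841 and 5072 in winter active. Both arousal libraries of CD74 lay below both torpor libraries (as in 22.2% of tested genes) and both summer active libraries (25.3%). CIITA, the class II transactivator, stood at 14.3 and 19.3 in summer active, 16.5 and 9.43 in torpor, 19.6 and 10.8 in arousal, and 16.7 and 13.3 in winter active, with overlap between all states. RFX5, a factor that binds class I and class II promoters, averaged 14.2 ± 0.872 in summer active, 14.4 ± 2.21 in torpor, 17.4 ± 3.77 in arousal and 14.9 ± 1.51 in winter active.

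Of 14 interferon signalling genes tested, none passed in any comparison by limma under the deposited scaling. In arousal against torpor 3 of the 14 had an unadjusted p under 0.05, beside 19.7% of tested genes. The median difference of the 14 was 0.42 in arousal against summer active, beside 0.083 for all genes. It was 0.21 in arousal against torpor, beside 0.11. IRF1, an interferon-induced activator of class I and immunoproteasome genes, averaged 65.4 ± 11.3 in summer active, 69.1 ± 45.5 in torpor, 92.6 ± 31.5 in arousal and 104 ± 23.4 in winter active. IFNG itself did not reach a mean of 1, with values from 0 in arousal 2 to 1.09 in torpor 1.

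After rescaling to equal totals, genes of these lists were called higher beside a large share of all genes. In arousal against summer active, where 43.1% of all genes were called higher, the calls were 7 of 14 core subunits, 3 of 8 cap and assembly genes, 7 of 8 peptide loading and trimming genes, 1 of 2 class I-like genes, 5 of 12 class II genes and 11 of 14 interferon signalling genes. In winter active against summer active (4.89% of all genes) they were 1 of 8 peptide loading and trimming genes, 3 of 12 class II genes and 5 of 14 interferon signalling genes. In arousal against torpor (3.26% of all genes) they were 1 cap and assembly gene, 1 peptide loading and trimming gene and 1 interferon signalling gene.

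**Figure D4:**
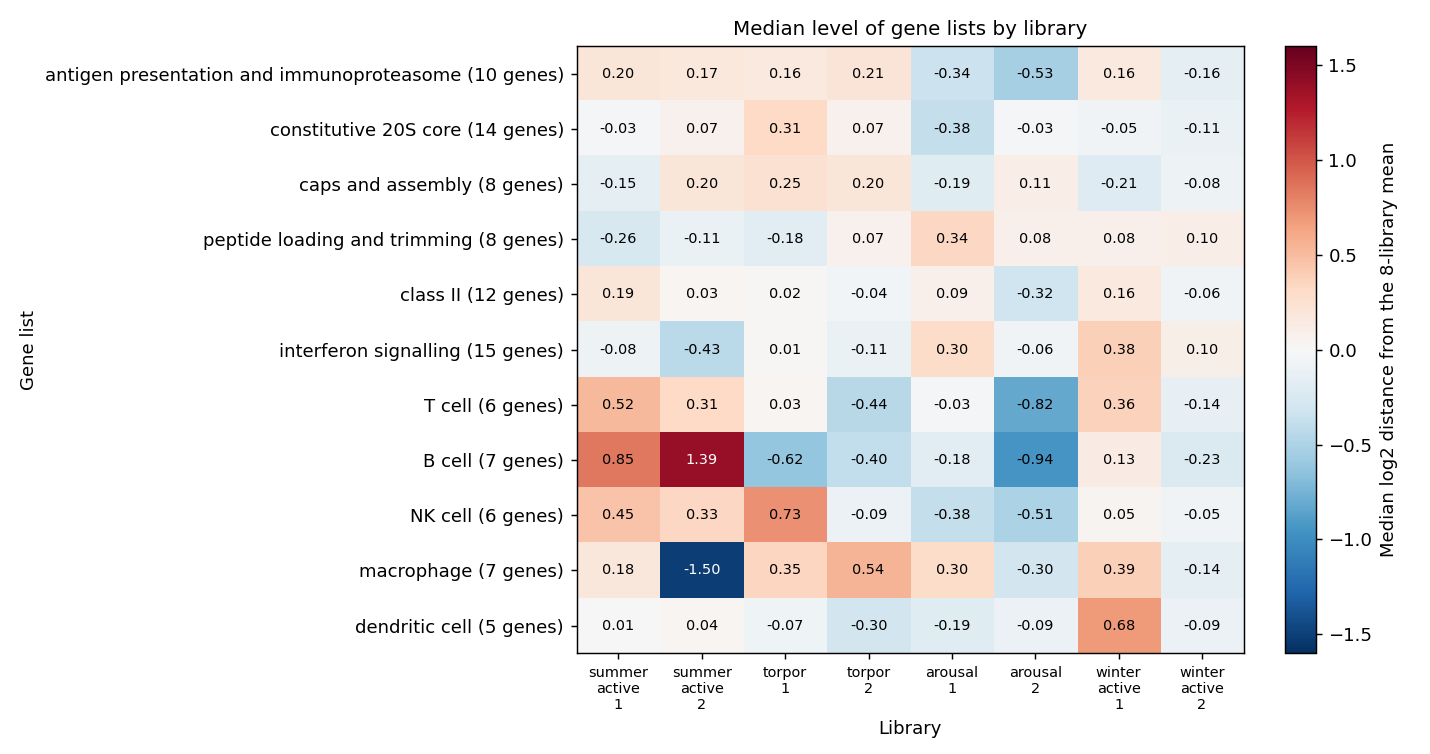
Median log2 distance from the 8-library mean for each gene list (rows, number of genes in the table in brackets) in each library (columns); red is above and blue below the mean. The 10 genes stand at -0.34 and -0.53 in the arousal libraries and at 0.16 to 0.21 in torpor and summer active, and NK cell markers are also lowest in the arousal libraries.

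Markers of the cells that carry these genes moved in several ways. NK cell markers (6 of 6 genes in the table, none at 0) summed to 79.6 and 48.1 in arousal, against 250 and 156 in torpor and 290 and 156 in summer active. CCL5 was the largest part of each of these sums, at 45.3 and 18.9 in arousal and 158 and 97.0 in torpor. NCR1 stood at 2.48 and 2.63 in arousal and at 3.43 and 1.77 in torpor. T cell markers (6 of 9, none at 0) summed to 175 and 110.2 in arousal, against 181 and 149 in torpor and 305 and 231 in summer active. B cell markers (7 of 7, none at 0) summed to 832 and 575 in arousal, against 732 and 798 in torpor and 2430 and 2841 in summer active. Macrophage markers (7 of 7, none at 0) summed to 14166 and 10399 in arousal, against 18676 and 17344 in torpor and 13661 and 4331 in summer active. Dendritic cell markers (5 of 5, none at 0) summed to 111 and 150 in arousal, against 185 and 119 in torpor and 138 and 118 in summer active. Single markers did not all follow these sums. In arousal against torpor, 4 of 6 NK cell, 3 of 6 T cell and 3 of 7 B cell differences were negative. So were 6 of 7 macrophage and 2 of 5 dendritic cell differences, against 41.9% of tested genes. The part of these markers in the low arousal levels of the 10 genes was not tested. Winter active 1, in which 9 of the 10 genes exceeded winter active 2, also had higher sums than winter active 2 of T cell markers (239 and 172), B cell markers (1166 and 854), NK cell markers (154 and 116), macrophage markers (14813 and 11562) and dendritic cell markers (250.4 and 122). Winter active 1 had lower sums than winter active 2 of adipocyte markers (36.8 and 199), pancreatic markers (14.8 and 70.3) and stomach markers (0 and 1261). The part of these in that difference was not tested.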

How the data were processed

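The authors deposited 1 value per gene and library, a TPM signal rescaled between libraries, since its columns have unequal totals. The median ratio of a library to the geometric mean was 0.947 to 1.04. Per the submitters' processing notes, kallisto 0.46.2 and sleuth 0.30.0 were used. The transcriptome and the rescaling step were not given in the sources used here.

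Genes with a mean of at least 1 were tested on log2(level + 1) with limma 3.58.1 in R 4.3.3 (trend, two-sided, Benjamini-Hochberg over 13542 genes, all 8 libraries in 1 fit, 4 residual and 3.29 prior degrees of freedom). Tests planned for TPM were kept for the rescaled values. Ratios were tested by exact permutation in Python 3.11.15.

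The genes and lists were chosen with earlier results of these data known. Statistics are given for genes of the 10 past the threshold, or else for the 3 with the smallest p, and for list genes past the threshold. Levels are given for list genes chosen by name, 1 of which is not reported here. PSMB8 and B2M in arousal against summer active, and CD74, FCGRT, IFNG and TAPBPL, were added after their values were seen. All 19652 identifiers matched mRhiFer1_v1.p, used for names and neighbours alone. In simulated torpor against summer active data, 200 of 13542 genes were changed, and those changed by 1, 2 and 3 on the log2 scale were called in 10.3%, 62.1% and 81.2% of cases.

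Alternatives were a pseudocount of 0.1, no filter, equal column totals, quantile normalization, a replicate block, the 2 states alone, and each library left out, which takes the remaining library of that state to vary as the other states do.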

Additional observations from a re-analysis of the deposited data

How the results depend on the processing

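PSMB9 in arousal against summer active was the single call among the 10 genes. The count of calls there was 0 with no filter, under quantile normalization, with the replicate block and with the 2 states alone, and 0 to 1 without 1 library. In the other 5 comparisons it was 0 under all alternatives run. After rescaling to equal totals, PSMB8 stood at 0.10 in torpor against summer active, and PSMB8 and B2M at 0.086 and 0.20 in winter active against summer active, all with the sign reversed.

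The count of genes called over the whole table was 76 in torpor against summer active, and 11 with the 2 states alone. In arousal against torpor it was 0, and 445 after rescaling. In winter active against torpor it was 0, and 4 with no filter. In winter active against summer active it was 140, against 779 after rescaling and 32 with the 2 states alone. In arousal against summer active it was 748, against 284 with no filter, 6099 after rescaling and 27 with the 2 states alone. In winter active against arousal it was 0, and 1 with no filter. Without 1 library these counts ran from 9 to 312, 0 to 2, 0 to 0, 15 to 374, 25 to 677 and 0 to 1 in the order of comparisons just given. Arousal against summer active had 677 without summer active 1 and 25 without arousal 2.

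The median difference of the 10 genes after rescaling was 0.37 in torpor against summer active, -0.28 in arousal against torpor, -0.040 in winter active against torpor, 0.33 in winter active against summer active, 0.25 in arousal against summer active and 0.24 in winter active against arousal. Under quantile normalization it was -0.38 in arousal against torpor, -0.066 in winter active against torpor, -0.059 in winter active against summer active, -0.33 in arousal against summer active and 0.27 in winter active against arousal. Without 1 library it ran from -0.07 to 0.047, -0.77 to -0.55, -0.41 to -0.11, -0.39 to -0.057, -0.72 to -0.36 and 0.22 to 0.58, in the same order. The cause of these shifts was not tested, beyond what the change of column totals sets by construction.

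With the replicate number as a block, 85, 0, 0, 103, 842 and 0 genes were called in the same order, and PSMB9 had an adjusted p of 0.0547. The difference between replicates 1 and 2 correlated between states at -0.19 to 0.32 over 13542 genes. Among summer active, torpor and winter active it correlated at 0.23 to 0.32. Such correlations cannot show whether the replicate numbers share a factor between states. The subunit ratios were rerun only with a pseudocount of 0.1 and without each library. With a pseudocount of 0.1 no adjusted p of the exact permutation test crossed the threshold. Without 1 library, the highest minus the lowest state mean of the log2 ratio ran from 0.63 to 1.27 for PSMB8/PSMB5. It ran from 0.36 to 0.79 for PSMB9/PSMB6 and from 0.25 to 0.73 for PSMB10/PSMB7. For PSME1/PSME2 it ran from 0.11 to 0.18, and for TAP1/TAP2 from 0.36 to 0.62.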
